A study of Drosophila melanogaster with 4 samples.

Results

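Heat shock genes of Drosophila melanogaster were followed in a two-colour array study of RNA precipitated with the splicing factor B52. The set held 10 genes, namely the small heat shock protein genes Hsp22, Hsp23, Hsp26, Hsp27, Hsp67Ba and Hsp67Bc, the chaperone genes Hsp68, Hsp83 and DnaJ-1, and Hsf, which encodes their transcription factor. Its members were taken as the probes of the deposited table whose only gene symbol, updated through the gene identifier, was one of these names. This gave 5 probes of 15744, 1 each for DnaJ-1, Hsp26, Hsp27, Hsp68 and Hsf, and all 5 had a value on all 4 arrays. The other 5 genes had no probe of their own here and were not analysed: none was assigned to Hsp23, Hsp67Ba, Hsp67Bc or Hsp83, and both probes listed for Hsp22 were listed together with CG4456, which overlaps it. The values below thus cover 2 of 6 small heat shock protein genes and do not cover Hsp83, the fly Hsp90.

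All larvae carried GMR, a driver of expression in the eye disc, with either GFP-B52 or, as the control, GFP-NLS, a green fluorescent protein sent to the nucleus. Each extract came from the dissected anterior ends of 600 larvae in the third instar, was precipitated with an anti-GFP antibody, and gave the poly(A) RNA that was labelled. These ends hold tissues beside the eye discs, and both extracts were pools. GFP-B52 and GFP-NLS RNA shared each array, with 2 replicates in both dye orientations, and no label states whether the replicates came from separate animals, so any p-value rests on a spread between samples that may be technical only.

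Heat shock proteins keep other proteins from aggregating and help them fold. The small heat shock proteins bind unfolded proteins without using ATP, the Hsp70 proteins refold them in cycles of ATP hydrolysis, J-domain proteins such as DnaJ-1 bring substrates to Hsp70 and stimulate its ATPase, and Hsp90 matures kinases and receptors. The transcription factor Hsf forms trimers under stress and switches these genes on, and several small heat shock protein genes are also switched on by ecdysone at the end of larval life. The B52 protein itself was described as flanking the puffs that form at active heat shock loci on polytene chromosomes.

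The deposited values are log ratios of the 2 channels, and neither the log base nor the direction of the ratio is given in the sources used here. The median of each array was first set to 0. Arrays are named by the dye of the B52 RNA, and the Cy5 arrays were then multiplied by -1. If the deposited ratio runs from 1 dye to the other, a constant ratio of the precipitates then has 1 sign on all 4 arrays. Probe 13309 for B52 lay above 0 on this scale, at 0.47 ± 0.05 (SD, n = 2), and its sign was used to set the orientation; the other 4 probes for B52 lay between -0.33 and 0.13. A negative value therefore means the side opposite to that probe, called the low side here, and which precipitate held more of the RNA stays unknown. On the deposited scale the arrays of replicate 1 with opposite dyes correlated across probes at r = 0.608 and those of replicate 2 at r = -0.167. If the ratio runs from 1 dye to the other, values that follow the RNA and not the dye give a negative r. If it runs from 1 precipitate to the other, they give a positive r, so the sign of r does not settle this here. Depth does not apply to these arrays, and their number limits the precision of each value.

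The gene for the J-domain cochaperone DnaJ-1 (CG10578, chromosome arm 3L, 5750029 to 5752189 in Release 6) stood farthest from 0 among the 5 genes on the turned scale, on the low side; without turning its mean was 0.06, nearer to 0 than those of Hsf at 0.155 and Hsp68 at -0.0765. As deposited, its probe 1804 read 0.35 in replicate 1 and 0.69 in replicate 2 on the Cy5 arrays, and -0.36 and -0.43 on the Cy3 arrays. Its sign thus followed the dye swap in both replicates, and on the turned scale the 4 arrays read -0.34, -0.69, -0.37 and -0.43 in the same order. All 4 arrays lay on the low side, with the Cy5 array of replicate 2 the lowest and the other 3 close together.

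The mean of DnaJ-1 was -0.46 ± 0.14 log units (SD, n = 2; here and below over replicates whose dye orientations were averaged, so the spread between dyes is left out), a ratio of 2.87 if the logs are to base 10 and of 1.37 if to base 2. Its interval at 95% from the moderated fit, not adjusted for the number of genes, ran from -0.61 to -0.31. Over 11173 genes it was not called (adjusted p = 0.0826 in limma, and 0.268 over probes); 1 gene was, which is 0.00895% of those tested. That gene, named here after its values were seen, was pen-2 (adjusted p = 0.0122 in limma). In the fit over 13963 probes 0 were called in limma (0%), while 1808 of those probes had an unadjusted p under 0.05. With the replicate number as a random replicate block over the 4 arrays DnaJ-1 was called (adjusted p = 0.0109 in limma), in a fit whose correlation within a replicate was -0.66. Its adjusted p over all alternatives ran from 0.0109 to 0.91. On single arrays between 0.115% and 8.01% of probes were as low, and on the mean over arrays 20 of 13963 probes, 0.143%, were.

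Both small heat shock protein genes with a probe lay on the low side on every array, at about the same distance. Hsp26 (CG4183, 3L, 9376418 to 9377427) encodes a cytosolic small heat shock protein. Its probe 1111 read -0.09 and -0.20 on the Cy5 arrays of replicates 1 and 2, and -0.09 and -0.15 on their Cy3 arrays. Both dye orientations of replicate 2 were thus lower than both of replicate 1, and the mean was -0.13 ± 0.06 log units (SD, n = 2), with an interval from -0.25 to -0.01 (adjusted p = 0.279 in limma over genes).

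Hsp27 (CG4466, 3L, 9384063 to 9385694) encodes a small heat shock protein that is found in the nucleus. Its probe 4583 read -0.12 and -0.07 on the Cy5 arrays of replicates 1 and 2, and -0.06 and -0.30 on their Cy3 arrays. The last of these arrays was the lowest, with a gap to the others of 0.747 of the whole range, which is under Dixon's critical value for 4 values, and without it the mean was -0.079. Over all arrays the mean was -0.14 ± 0.07 log units (SD, n = 2), with an interval from -0.26 to -0.02 (adjusted p = 0.265 in limma over genes). For Hsp26 and Hsp27 these means are ratios of 1.35 and 1.37 on a base of 10, or 1.10 and 1.10 on a base of 2. Means as low were held by 9.07% of probes for Hsp26 and 8.52% for Hsp27, so both lay well inside the spread of the array.

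The heat-inducible Hsp70 family gene Hsp68 (CG5436, 3R, 24055080 to 24057310) lay near 0. Its probe 10856 read 0.16 and -0.02 on the Cy5 arrays of replicates 1 and 2, and -0.13 and -0.04 on their Cy3 arrays. The Cy5 array of replicate 1 alone lay above 0, and the mean was -0.01 ± 0.03 log units (SD, n = 2), with an adjusted p of 0.965 in limma. The interval of its mean ran from -0.12 to 0.11, not adjusted for the number of genes, so a difference of that size in either direction cannot be told from 0 here.

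Hsf (CG5748, 2R, 18130303 to 18134634), which encodes the factor that activates heat shock genes, had the highest mean of the 5. Its probe 12505 read -0.19 and 0.10 on the Cy5 arrays of replicates 1 and 2, and 0.35 and 0.18 on their Cy3 arrays. The Cy5 array of replicate 1 alone lay below 0, and the other array of that replicate was the highest of all. The mean was 0.11 ± 0.04 log units (SD, n = 2), with an interval from -0.01 to 0.22 (adjusted p = 0.344 in limma over genes). Without the Cy3 array of replicate 1 it was -0.03. Replicate 1 was then its Cy5 array alone, at -0.19, so the dyes no longer cancelled in it. The change of sign can therefore not be laid to the omitted array alone.

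**Figure D1:**
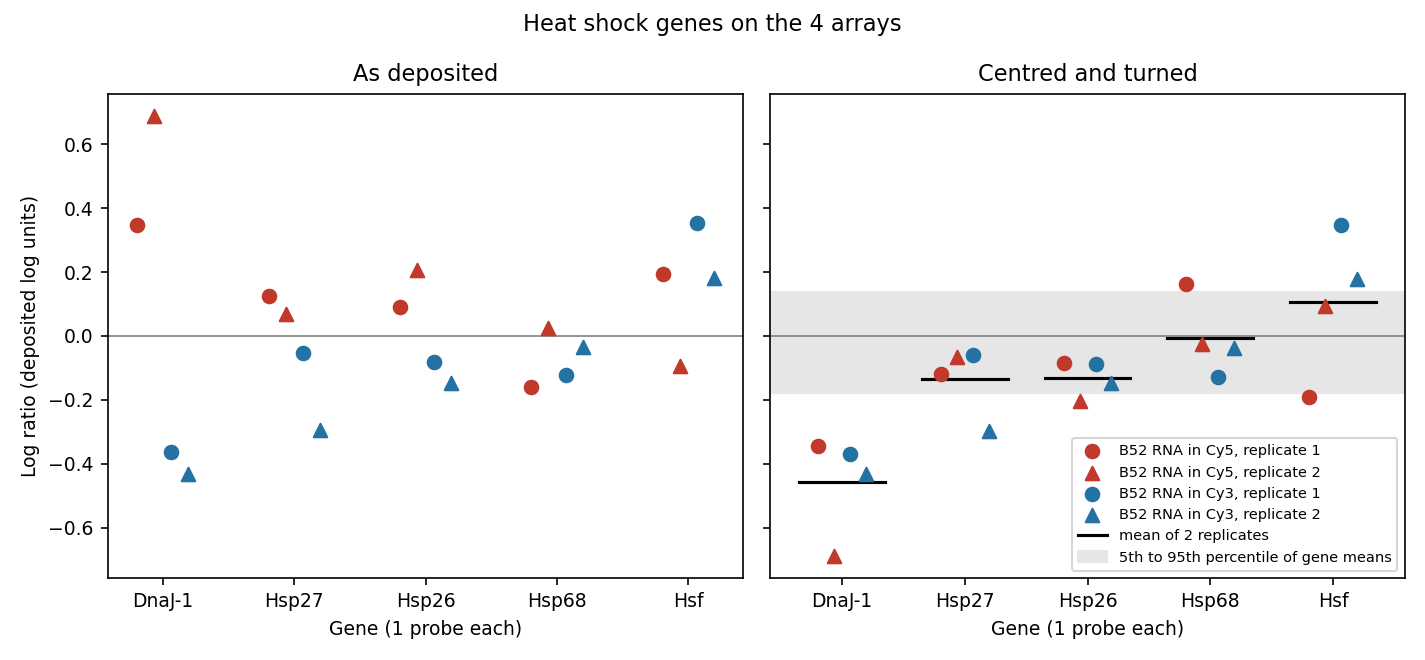
Log ratios (deposited log units) of the 5 heat shock genes, 1 probe each, on the 4 arrays, as deposited on the left and centred and turned on the right; colours give the dye of the B52 RNA, shapes the replicate, black lines the mean of 2 replicates, and the grey band the 5th to 95th percentile of gene means. DnaJ-1 changes sign with the dye as deposited and lies between -0.69 and -0.34 once turned, while the means of the other 4 genes lie inside the band.

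Of the 5 probes 3, those of DnaJ-1, Hsp26 and Hsp27, lay on the low side on all 4 arrays, where 8.04% of all 13963 probes did. None lay on the opposite side on all 4 arrays, where 5.96% of all probes did. Only DnaJ-1 stood at least 0.301 log units from 0 on the low side on every array, as 0.1% of all probes did. That cut is a ratio of 2 if the logs are to base 10 and of 1.23 if to base 2. An unadjusted p under 0.05 on the low side was reached by the same 3 genes in limma, against 9.55% of all genes, and on the opposite side by 0 of 5, against 6.17%. The median of the 5 means was -0.13, beside -0.003 over all probes. With 5 probes picked by name these shares describe the set and were not tested.

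On the turned scale, in order from the low side, the genes ran DnaJ-1, Hsp27, Hsp26, Hsp68 and Hsf. DnaJ-1 and Hsp27 differed by 0.32 ± 0.08 log units (SD of the difference between replicates, n = 2), DnaJ-1 was the lower on 4 of 4 arrays, and their array values did not overlap. Hsp27 and Hsp26 differed by 0.005 ± 0.002, with Hsp27 lower on 2 of 4 arrays, and their order was not resolved. Hsp26 and Hsp68 differed by 0.12 ± 0.03 and Hsp68 and Hsf by 0.11 ± 0.07, each on 3 of 4 arrays, and the array values overlapped in both cases. Without turning the order was another, with Hsp68 lowest, then Hsp27, Hsp26, DnaJ-1 and Hsf.

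The 4 centred values of a probe can be split into 4 sign patterns, 2 shared by the replicates and 2 that differ between them. In the first pattern the deposited sign changes with the dye swap, and in the second it is the same in both dye orientations. The first took 91.8% of the mean square of DnaJ-1, 87.8% of that of Hsp26 and 66.8% of that of Hsp27, against 22.6% summed over all probes. The second took 1.46%, 0.964% and 6.53% in the same genes, against 40.2% over all probes. Probes with large values weigh most in these sums. The median share of a single probe was 14.2% for the first pattern and 32.8% for the second. In Hsp27 a further 19.0% had 1 sign within each replicate and the opposite one in the other.

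For Hsp68 the first pattern took 0.372%, the second 51.5%, and the one with opposite signs in the replicates 43.1%. For Hsf the first took 23.4% and the second 48.7%. If the deposited ratio runs from Cy5 to Cy3 or back, as turning assumes, the first pattern is the comparison of the precipitates and the second the dye. If it already runs from 1 precipitate to the other, these names are exchanged, and DnaJ-1 then has 91.8% in the dye and 1.46% in the comparison. The sources used here do not settle which reading holds.

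**Figure D2:**
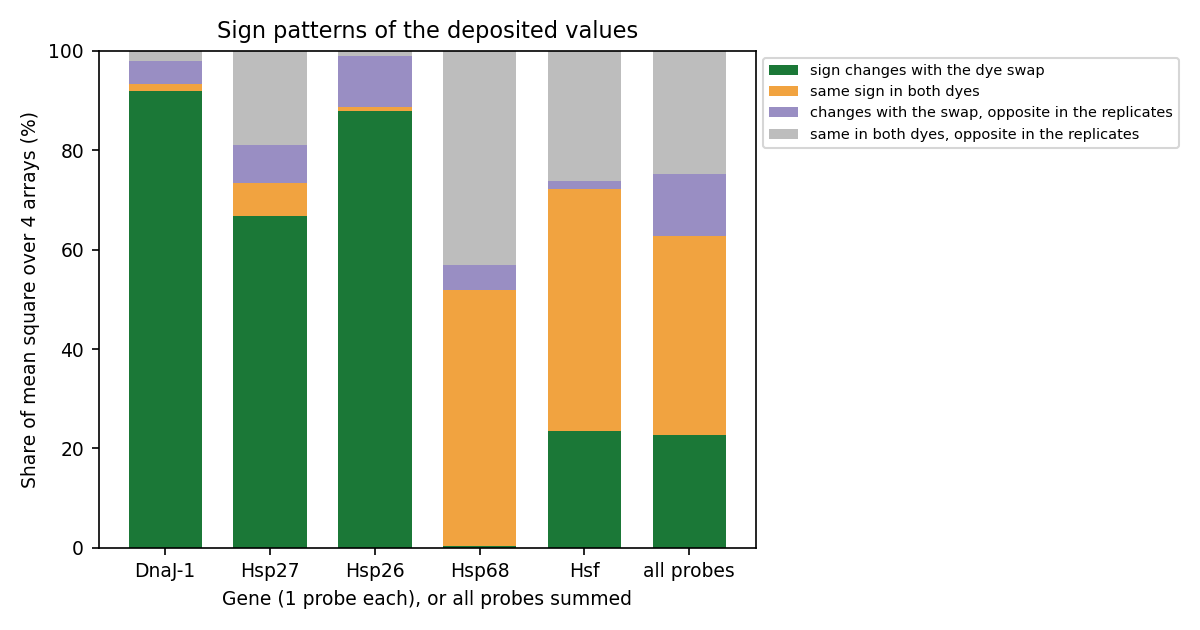
Share of the mean square over the 4 arrays (%) that falls in each sign pattern of the deposited, centred values, for the 5 heat shock genes and summed over all probes. A sign that changes with the dye swap takes 91.8%, 87.8% and 66.8% in DnaJ-1, Hsp26 and Hsp27, against 22.6% over all probes, while the same sign in both dyes takes 1.46%, 0.964% and 6.53%, against 40.2%; which of these patterns is the comparison of the precipitates depends on the unstated direction of the ratio.

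The other small heat shock protein genes had means near 0. Of 4 measured genes of the family, 3 had negative means, the median was -0.003, and 0 had an unadjusted p under 0.05 in limma. The gene l(2)efl, a crystallin-type small heat shock protein, lay at -0.10 ± 0.02 log units (SD, n = 2), with arrays between -0.16 and -0.05, all on the low side like those of Hsp26 and Hsp27. CG4461, which lies beside Hsp26, was at -0.01 ± 0.07, CG7409 at 0.02 ± 0.01 and CG13133 at -0.001 ± 0.07, each with arrays on both sides of 0.

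The Hsp70 proteins are the partners of DnaJ-1, and their genes spread over both sides. Of 11 measured genes of the Hsp70 and Hsp110 list 6 had a negative mean, the median was -0.01, and 2 on the low side and 1 on the other had an unadjusted p under 0.05 in limma. Here and in the lists below, such counts stand beside 9.55% of all genes on the low side and 6.17% on the other. Hsp70Ba, a heat-inducible copy, read -0.50, -0.77, -0.54 and -0.66 over the arrays, in the order used for DnaJ-1, with a mean of -0.62 ± 0.14 (SD, n = 2; adjusted p in limma 0.0772). It was the only gene of the list as low as DnaJ-1, while the 4 other measured Hsp70 copies had means between -0.12 and 0.10; these copies are nearly identical in sequence, so what each probe hybridised to is uncertain. Among the constitutive genes, Hsc70-3, the chaperone of the endoplasmic reticulum, lay at -0.25 ± 0.05 and Hsc70-4, the main cytosolic one, at 0.18 ± 0.05 (SD, n = 2), each of 1 sign on all 4 arrays and neither called (adjusted p = 0.111 and 0.172). Hsc70-2 lay at 0.12 ± 0.12.

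The other J-domain genes lay around 0. Of 33 measured genes 16 had a negative mean, the median was 0.01, and 0 were as low as DnaJ-1, as 0.143% of all probes were. CG14650 was the lowest at -0.20 ± 0.16 log units, and CG32641 the highest at 0.32 ± 0.14 (SD, n = 2). CG30156 lay at 0.17 ± 0.03 and the translocon component gene Sec63 at 0.12 ± 0.03 (SD, n = 2). The arrays of CG30156 all lay above 0, while those of Sec63 ran from -0.04 to 0.33. Unadjusted p-values under 0.05 in limma were reached by 1 gene of 33 on the low side, where 9.55% of all genes reached them, and by 3 on the other, where 6.17% did.

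Hsp83 had no probe, but 17 genes for Hsp90 paralogs and cochaperones were measured, of which 6 had negative means and the median was 0.04. The cochaperones lay on both sides: Sgt1 lay at -0.21 ± 0.01 and Stip1, which links Hsp70 to Hsp90, at -0.18 ± 0.02, both on the low side on all 4 arrays, against 0.18 ± 0.04 for Cdc37, which brings kinases to Hsp90, and 0.12 ± 0.11 for p23 (SD, n = 2). The arrays of Cdc37 ran from -0.41 to 0.82. In limma 2 genes on the low side and 1 on the other had an unadjusted p under 0.05, and none was called.

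Of 20 chaperonin and prefoldin genes 7 had a negative mean and the median was 0.03. The prefoldin subunit genes Pfdn5 and Pfdn4 lay at -0.24 ± 0.05 and -0.12 ± 0.03 (SD, n = 2), both on the low side on all arrays. Pfdn1 and mgr, also of prefoldin, lay at 0.15 ± 0.02 and 0.16 ± 0.07 (SD, n = 2). Their arrays lay on both sides of 0, from -0.14 to 0.41 and from -0.15 to 0.38. Unadjusted p-values under 0.05 in limma were reached by 3 genes on the low side and 2 on the other.

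Among 8 genes of heat shock regulation and of paused polymerase, 5 had negative means and the median was -0.01. CG5446 read -0.48, -0.46, -0.28 and -0.57 over the arrays, with a mean of -0.45 ± 0.10 (SD, n = 2; adjusted p in limma 0.0776), close to DnaJ-1. The genes of the negative elongation factor Nelf-E and TH1 lay at 0.08 ± 0.002 and 0.07 ± 0.03, with single arrays from -0.32 to 0.48 and from -0.38 to 0.57, and Trl, which encodes the GAGA factor that opens heat shock promoters, at -0.07 ± 0.004. Over these lists together 0 genes were called at an adjusted p under 0.05 in limma. Over all 11173 genes 54.0% had a negative mean and the median was -0.01.

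**Figure D3:**
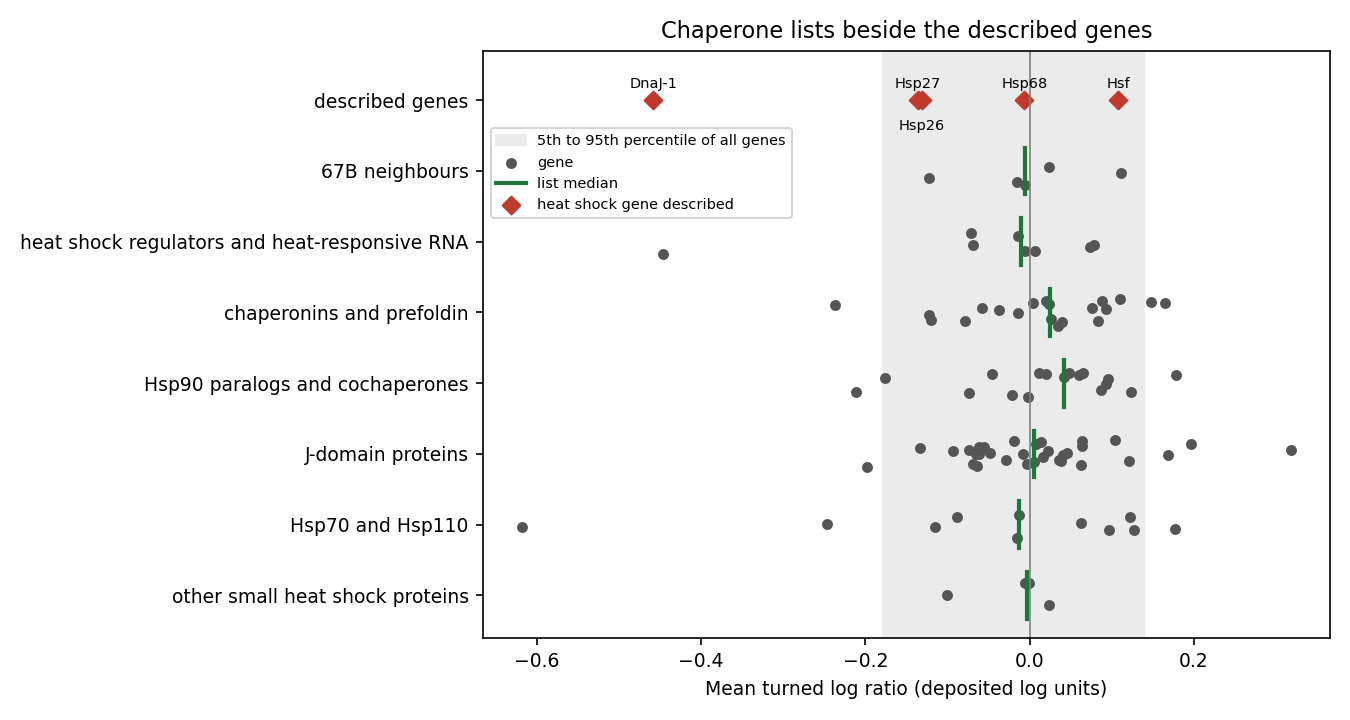
Mean turned log ratio (deposited log units) of each measured gene in 7 chaperone lists, with the list median in green, the 5 described heat shock genes as red diamonds, and the 5th to 95th percentile of all genes in grey. DnaJ-1 at -0.46, Hsp70Ba at -0.62 and CG5446 at -0.45 lie far to the left, while the medians of all 7 lists lie between -0.01 and 0.04.

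Hsp26 and Hsp27 lie in the 67B cluster of small heat shock protein genes, so the values of neighbouring genes were set beside theirs. The nearest measured genes were Fdx1 at -0.003 ± 0.01 and CG4461 before Hsp26, then CG4080 at -0.12 ± 0.08 and the translation factor gene eIF4E1 at 0.05 ± 0.07 after Hsp27 (SD, n = 2). CG4080 had a mean like those of Hsp26 and Hsp27, but its Cy5 array of replicate 1 lay at 0.003. Of the 5 genes fixed as neighbours of 67B, CG4461 and CG4080 among them, 3 had a negative mean and 0 lay on the low side on all 4 arrays, with a median of -0.01; CG4022 lay at 0.11 ± 0.07, CG3552 at 0.02 ± 0.13 and CG3529 at -0.02 ± 0.003.

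The neighbours of DnaJ-1 had means nearer to 0. The separase gene Sse, the nearest measured gene on its left, was at -0.11 ± 0.24 (SD, n = 2). Sse ends at 5662247 while DnaJ-1 starts at 5750029, and its Cy3 array of replicate 2 read -0.36. The ubiquitin protease gene Usp47 on the right was at 0.14 ± 0.05 (SD, n = 2), above 0 on all 4 arrays. Over the 16 genes that were the 2 nearest measured ones on each side of the 5 heat shock genes, means ran from -0.12 to 0.19, 5 were negative, and 0 lay on the low side on all 4 arrays.

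**Figure D4:**
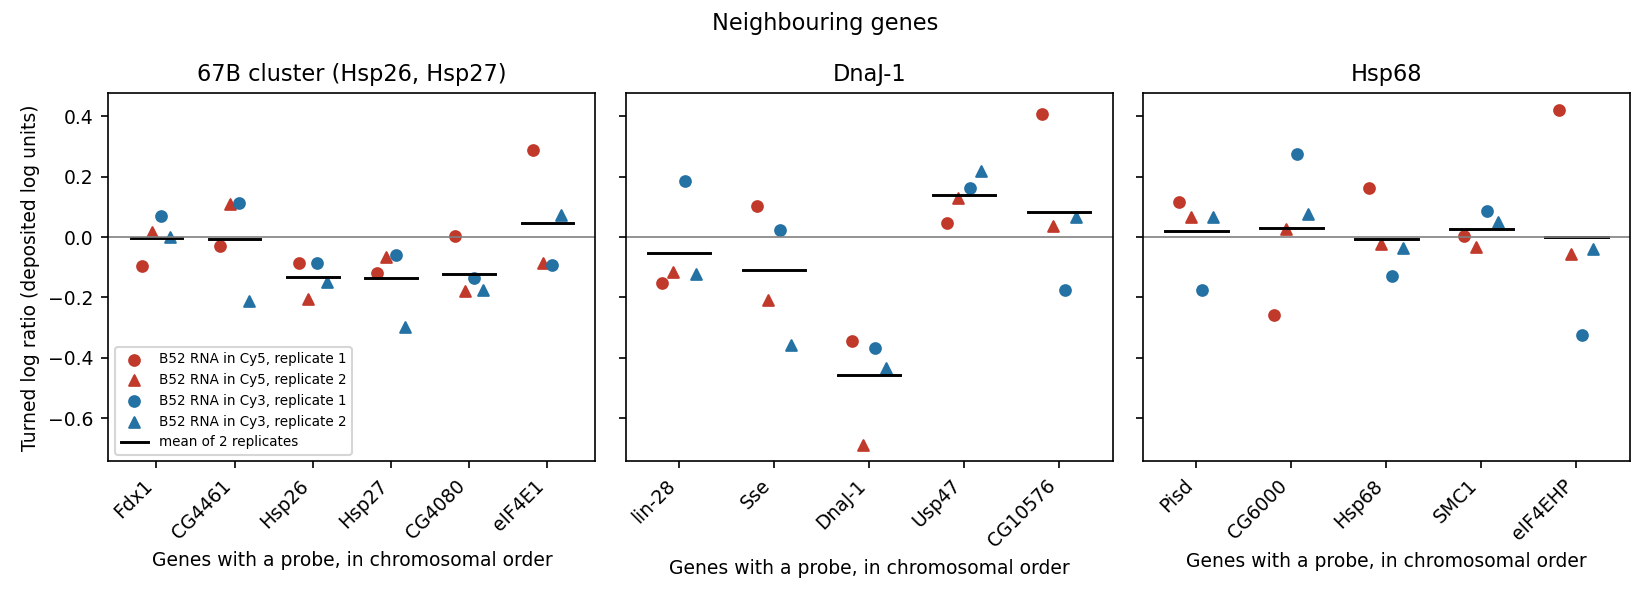
Turned log ratios (deposited log units) of Hsp26 and Hsp27, DnaJ-1 and Hsp68 and of the nearest measured genes in chromosomal order, with 4 arrays as points and the mean of 2 replicates as a line. DnaJ-1 lies below all arrays of Usp47 and CG10576 to its right. On its left the Cy3 array of replicate 2 of Sse, at -0.356, lies below the highest array of DnaJ-1, at -0.344. Hsp68 lies near 0 like its neighbours.

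The genes whose 4 turned values were nearest to those of DnaJ-1, by Euclidean distance over the arrays among 11173 genes, were wun, a lipid phosphate phosphatase gene, at a distance of 0.175 log units, CG7924 at 0.182 and CG30411 at 0.195. Their means were -0.41 ± 0.15, -0.44 ± 0.05 and -0.42 ± 0.21 (SD, n = 2). Nearest to Hsf were CG31473 at 0.041, the splicing helicase gene Prp16 at 0.0443 and CG1888 at 0.0659, all low on the Cy5 array of replicate 1 and high on the other array of that replicate. With 4 arrays such likeness is a description only.

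Markers of other tissues in the anterior ends lay on both sides. All 7 measured glial markers had a negative mean (median -0.20), and 5 of them lay on the low side on all 4 arrays, the side of DnaJ-1, Hsp26 and Hsp27, where 8.37% of all genes did. The low side on all 4 arrays also held 2 of 9 salivary gland, 1 of 5 muscle and 1 of 8 hemocyte markers. It held 1 of 10 photoreceptor and eye disc, 1 of 5 tracheal and 1 of 6 neuroblast markers as well. On the opposite side on all 4 arrays lay 4 of 8 hemocyte, 2 of 5 muscle, 2 of 9 salivary gland and 1 of 4 fat body markers. Of all 11173 genes 663 lay there. An unadjusted p under 0.05 in limma was reached on the low side by 4 glial, 2 salivary gland and 1 muscle markers. It was also reached there by 2 photoreceptor and eye disc, 2 tracheal and 2 neuroblast markers. On the other side 5 hemocyte, 4 muscle, 3 salivary gland and 1 fat body markers reached it. The shares over all genes were 9.55% on the low side and 6.17% on the other. The salivary gland markers ng1 at -0.54 and ng2 at -0.53 and the glial marker Gs2 at -0.47 were as low as DnaJ-1. Negative means were held by 4 of 6 neuroblast markers (median -0.08), 3 of 5 tracheal (-0.10), 6 of 10 photoreceptor and eye disc (-0.05), 2 of 4 fat body (-0.02), 4 of 9 salivary gland (0.06), 1 of 5 muscle (0.19) and 1 of 8 hemocyte markers (0.15). Ratios give no level, so the tissues could not be checked for absent markers, and in pools a difference in cells cannot be told apart from one in RNA per cell. All 4 arrays held precipitated RNA. A difference in the amount of an RNA in the extracts therefore cannot be told apart from one in how much of it was precipitated. The part of these tissues in the values of the heat shock genes was not tested.

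The mean of DnaJ-1 depended on how the columns were read. Taken as deposited, without turning, its mean was 0.06, that of Hsp26 0.01 and that of Hsp27 -0.04. On that scale 0 of the 5 probes lay below 0 on all 4 arrays. Without turning the mean takes the second shared sign pattern, and the low side, set on the turned scale, is not defined for it. In each of the other alternatives DnaJ-1 had a mean between -0.56 and -0.36, the extremes being those of replicates 2 and 1 alone. Hsp26 and Hsp27 also had negative means there. Several of these alternatives change only the test or the choice of probes, and in them the means could not change.

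**Figure D5:**
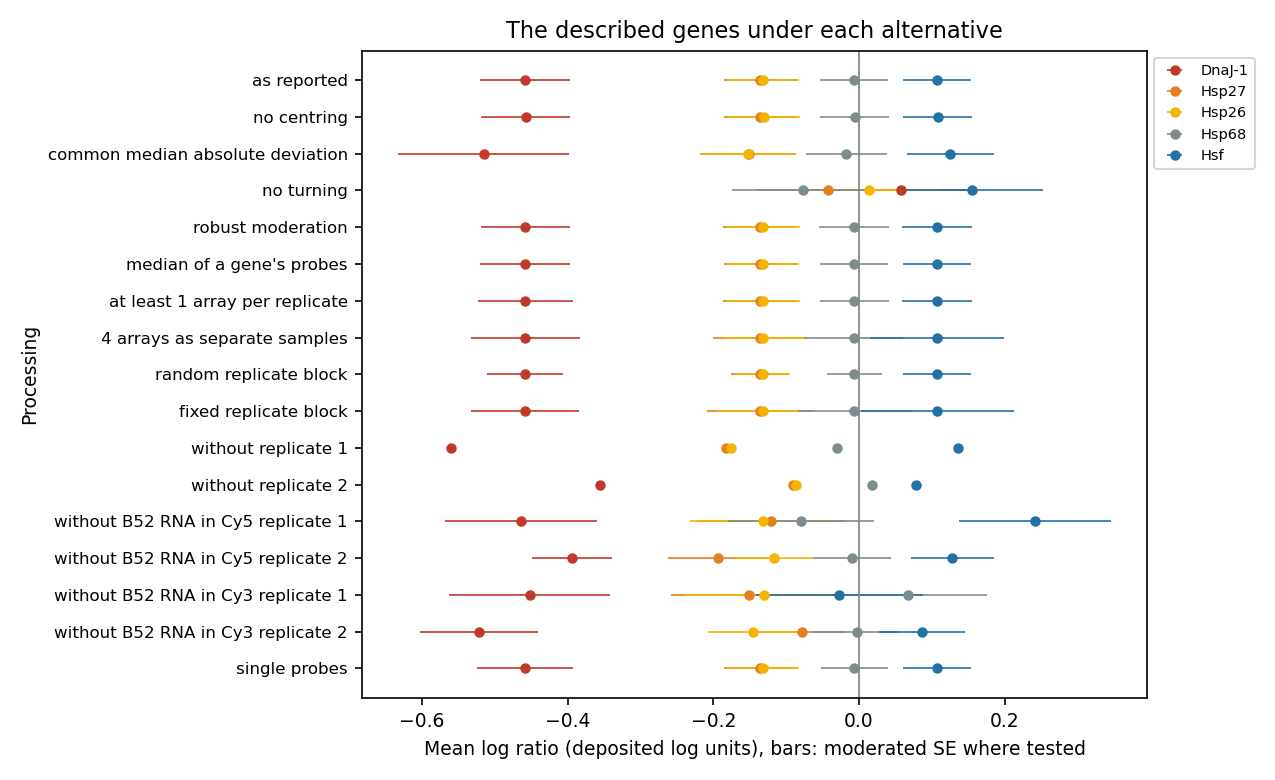
Mean log ratio (deposited log units) of the 5 heat shock genes under each way of processing, with the moderated SE as bars where a test was possible. DnaJ-1 lies between -0.56 and -0.36 in all but the columns without turning, where it lies at 0.06.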

How the data were processed

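A single table deposited by the authors gives, for 15744 probes on 4 arrays, the log ratio of both channels; this is another kind of unit, and its log base, direction, background correction and normalization were not given in the sources used here. Column medians lay between 0.002 and 0.006, 16 cells held the placeholder -10000 and were treated as missing, and between 350 and 955 cells per array were empty. The cut of 0.301 log units was set as a ratio of 2 on a base of 10, and it is a ratio of 1.23 on a base of 2. No other step assumed a log base, and values are given as deposited. Symbols came from the platform annotation, updated through the gene identifier to Release 6 (12519 probes updated by identifier, 628 kept as annotated, 99 with several symbols, 2498 with none); positions are those of genes. Arrays were centred and turned as described, the dye orientations of each replicate averaged, and the means of 2 replicates tested against 0 in limma 3.58.1 (R 4.3.3; lmFit, eBayes, Benjamini-Hochberg at 0.05), over 13963 probes and over the means of 11173 genes with a value on all 4 arrays. Moderation added 5.13 degrees of freedom to 1 in the fit over genes. Arrays with the same replicate number in the titles, 1 of each dye orientation, were taken as 1 replicate; the labels do not state that they hold the same extracts, and on the turned scale they correlated at -0.608 and 0.167. In simulated data for 11173 genes that fit called 68 of 100 genes changed by 0.3 and 99 of 100 changed by 0.6, with 22 false calls. For 13963 probes it called 2 and 89, with 10 false calls. In both, false calls were a larger share of these calls than the 0.05 that was set, in 1 simulated table each. The simulated replicate means varied as the fitted model assumes; an earlier simulation, which also drew dye and replicate variation into each mean, recovered no changed genes and was replaced, so these rates hold only under the model's own assumptions. Members, lists and tests were chosen with earlier results of these data known. Named genes were all members, up to 4 genes per chaperone list by moderated statistic, and the 3 nearest in pattern to the lowest and highest member; the neighbouring genes of DnaJ-1, Hsp68 and Hsf, and the lowest gene of a list, were added by position or rank. List entries were matched by symbol or a unique synonym, and not every entry of the J-domain list was checked for the domain. No sequences were used here.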

Additional observations from a re-analysis of the deposited data

How the results depend on the processing

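Without turning the columns, the mean of DnaJ-1 was 0.0578 and that of Hsp26 0.0138, 0 member probes lay on the low side on all 4 arrays, and 58 probes on the low and 34 on the other side were called over the whole table. With the random replicate block DnaJ-1 was called at its mean of -0.458, with 329 and 118 probes called, while with replicate as a fixed block 0 and 0 were. Robust moderation called 1 probe on the low side, and DnaJ-1 then had an adjusted p of 0.051. With 1 replicate or array left out, Hsf ranged from -0.0268 to 0.242 and Hsp68 from -0.0798 to 0.0668, so both changed sign. With 1 array left out, its replicate rests on 1 dye orientation, and the dyes no longer cancel in it. The cause of these changes was not tested. Hsp27 kept its sign in 16 of 16 alternatives, and DnaJ-1 and Hsp26 in all but the columns without turning. Several of these alternatives change only the test or the choice of probes. They returned the same means, so no sign could change in them. Without turning, the mean takes the second shared sign pattern in place of the first, so its sign does not bear on the turned one. Centring and scaling changed no sign and no call of the 5 genes. Probes with at least 1 array per replicate, arrays as separate samples and the median of a gene's probes left the means unchanged and changed no call. Each of the 5 genes had 1 probe, so single probes gave the same means. With 1 replicate left out no test could be made. Signal over background was not analysed here.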
